A study of Mus musculus with 28 samples.

Results

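Sterols and fatty acids are built by a defined set of enzymes, and the 31 genes described here encode those enzymes, the regulators that control them and the proteins that move cholesterol. The genes were chosen by name for these functions and make up 31 of the 24089 genes in the RNA-seq table. By role, 7 belong to the mevalonate pathway, 9 to the steps from squalene to cholesterol, 5 to the sterol regulatory element binding protein (SREBP) system, 4 to sterol transport and the liver X receptor (LXR), and 6 to fatty acid synthesis.

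Cells make cholesterol from acetyl-CoA through mevalonate and squalene, and fatty acids from the same precursor through malonyl-CoA. SREBP transcription factors are held in the endoplasmic reticulum by Scap and Insig proteins while sterols are plentiful, and they are released to activate these genes when sterols are scarce. LXR does the opposite job for export, since it binds oxidized sterols and activates cholesterol transporters. T cells need both pathways to build membranes when they are activated.

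The RNA-seq libraries come from naive CD4+CD62L+ T cells of mice on a C57BL/6 background, of both sexes and 8 to 10 weeks of age. The mice are taken here to be *Tgfbr1* f/f Ert2-cre+, the line the paper names for WT and KO cells in another experiment. The paper also lists *Tgfbr1* f/f Cd4-cre+ mice and does not say which line gave these libraries. Of the library titles, only those of DNase-seq name oil or tamoxifen. In the Ert2-cre+ line, mice given 1 mg of tamoxifen a day for 5 days were meant to lose *Tgfbr1*, the gene of TGF-β receptor I. They are called KO, whereas mice of the same genotype given oil are called WT. Cells from spleen and lymph nodes were stimulated with plate-bound anti-CD3 and soluble anti-CD28 and with medium alone (control), TGF-β1 at 2 ng/ml, IL-4 at 10 ng/ml, or both cytokines, the mixture that drives Th9 cells. Each of the 8 cultures has 3 libraries, numbered by replicate within the genotype, and the sources used here give neither the culture time of these libraries nor whether a number stands for 1 mouse, so p-values measure the spread between these libraries, which may be technical. If the Ert2-cre+ line was used, all KO mice received tamoxifen and all WT mice received oil. The loss of *Tgfbr1* and the drug then cannot be told apart in any comparison of KO with WT below.

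The headings of the RNA-seq table conflict with the read counts that the study lists in its Supplementary Data 3. Those counts name 8 WT libraries, the first and the third replicate of each WT culture. Each was compared with all 24 columns by which genes were at 0, over 1991 to 3821 genes of the part of the list at hand. Every one of the 8 libraries had a column in which at least 99.8% of genes had the same zero or nonzero state, against at most 85.8% in the next best column. In 6 of 8 libraries, that column carried the heading of another library. Read by position in library-number order (WT libraries first, then KO, and in each block of 4 the control, then each cytokine alone with TGF-β before IL-4, then both), the columns gave the right library in 8 of 8.

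All values below therefore use the position of each column. The other 16 columns, 4 of WT and all 12 of KO, had no library to compare with, so the culture of these columns rests on the order alone. Within WT cultures, the median gene's SD of log2(RPKM + 1) was 0.0746 to 0.0805 by position and 0.0990 to 0.150 as headed. For KO cultures the same measure did not separate the readings, at 0.0805 to 0.116 by position and 0.0890 to 0.108 as headed. Heading and position put the same columns in WT and in KO, so comparisons over all libraries of a genotype do not depend on this choice.

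Expression is given as RPKM, the reads of a gene divided by its length and by the library's mapped reads, so that levels can be compared between genes. Total read numbers are unknown. The steps between low values put the depth of the libraries between 0.575 and 1.20 of that of the first WT control library, with a median of 0.846. The second KO library with both cytokines had the lowest depth and lay furthest from the other libraries of its culture, with a median distance over genes of 0.130 in log2(RPKM + 1) against 0.0605 to 0.115 for the other 23. Without it, chosen for this after seeing the data, the member calls were the same except that *Abcg1* was added in the genotypes' responses to TGF-β. A gene was tested if its mean over the 24 libraries was at least 1 RPKM, which 9726 genes and 29 of the 31 members met. Fold changes are differences of log2(RPKM + 1), which understate the change of genes near 1 RPKM, and a gene was called when limma gave an adjusted p under 0.01 and a fold over 1.5.

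*Tgfbr1* itself separated the genotypes only in the cultures with TGF-β. Its RPKM was 3.02, 3.25 and 3.31 in the WT control libraries and 2.32, 2.55 and 3.05 in KO control. The table counts the whole gene and does not separate the deleted part, and the control cultures did not differ past the threshold (log2 fold change −0.21, adjusted p 0.225). With TGF-β, the 3 WT libraries held 13.9, 14 and 14.5 RPKM and the KO libraries 2.37, 2.42 and 3.24. With both cytokines, WT libraries held 17.6, 19.5 and 20.7 and KO libraries 3.45, 5.18 and 3.35. With IL-4 the values were 3.69, 3.48 and 3.94 in WT and 2.92, 3.75 and 3.17 in KO. Every WT library that received TGF-β was thus above every other library of either genotype, and no KO library showed such a level. KO cells still showed some response to TGF-β. *Foxp3*, chosen after its values were seen, held 1.46, 1.36 and 1.48 RPKM in KO control and 4.76, 3.95 and 3.92 with TGF-β, a log2 fold change of 1.09 (adjusted p 1.92e-06), beside 3.28 in WT.

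The cells carried the markers of T cells. All 7 T cell markers examined (*Cd3d*, *Cd3e*, *Cd3g*, *Cd4*, *Cd5*, *Cd28* and *Lck*) had a mean above 1 RPKM. Their sum lay between 1297 and 1741 RPKM in every library. *Lck*, at 253 to 463, had the highest mean, which is what most abundant means for each list below. Single markers moved within this sum. *Cd28* was called lower in WT with TGF-β (log2 fold change −0.76) and with both cytokines (−0.62). In KO, *Cd5* and *Cd28* were called lower with IL-4 (−0.72 and −0.89) and with both (−0.83 and −0.85). *Lck* was called lower in KO than in WT with both (−0.64). The pair of CD8 genes summed to 14.3 to 36.3, with *Cd8b1* the more abundant. B cell markers summed to 8.14 to 33.8 (*Cd79b* the most abundant), NK cell markers to 3.58 to 11.7 (*Eomes*) and dendritic cell markers to 1.60 to 3.49 (*Xcr1*). Erythroid and platelet markers summed to 0.166 to 25.7 with *Pf4*, at 0.126 to 10.5, the most abundant by its mean, and *Hbb-b1* was listed at 0 in all 24 libraries. *Hba-a1* was at 9.97 and 21.9 in the first and the second WT control library, at 14.5 in the second WT library with IL-4 and at 0 in the other 21, and its part in the results below was not tested.

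Neutrophil markers moved with culture and genotype. The neutrophil markers with values (*S100a8*, *S100a9*, *Mpo* and *Elane*, while *Ly6g* is not in the table) summed to 5.48, 15.3 and 13.9 RPKM in WT control, 69.8, 44.2 and 59.1 with TGF-β, 27.4, 43.7 and 17.1 with IL-4 and 118, 92.7 and 80.7 with both. The 12 KO libraries held 0.940 to 20.3. *S100a8* was the most abundant of them, at 0 to 79.3, and was at 0 in 3 libraries. Monocyte and macrophage markers summed to 1.21 to 19.9, with *Lyz2* the most abundant at 0.111 to 16.7. *Fcgr1* was at 0 in 19 and *Mrc1* in 15 libraries. In WT the monocyte and macrophage sum was 5.63, 7.12 and 4.78 in control and 19.9, 6.95 and 12.9 with TGF-β. It was 5.20, 3.44 and 3.51 with IL-4 and 17.7, 10.9 and 8.14 with both, and the 12 KO libraries held 1.21 to 11.6. Of the 3 neutrophil markers that were tested, *S100a9* and *Elane* rose with TGF-β + IL-4 in WT (log2 fold changes 2.85 and 2.18), *S100a8* missed the threshold (3.02, adjusted p 0.0107), and all 3 were lower in KO than in WT in that culture (−3.95 for *S100a8*, −3.35 for *S100a9* and −1.89 for *Elane*). *Mpo*, with a mean under 1 RPKM, did not share this pattern, at 1.25, 0.530 and 1.27 in WT and 0.949, 2.92 and 1.26 in KO with both cytokines. *Elane* met the filter of 1 RPKM only through the WT libraries with both cytokines, at 7.26, 4.02 and 3.32. Its calls therefore rest on the group that brought it into the test. By the paper's methods, the T cells were purified with magnetic beads before culture, a step meant to leave out other cell types. The part of neutrophils, and that of monocytes and macrophages, in the results below was not tested. In bulk libraries of this kind, fewer cells of a type and less RNA per cell cannot be told apart.

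**Figure D1:**
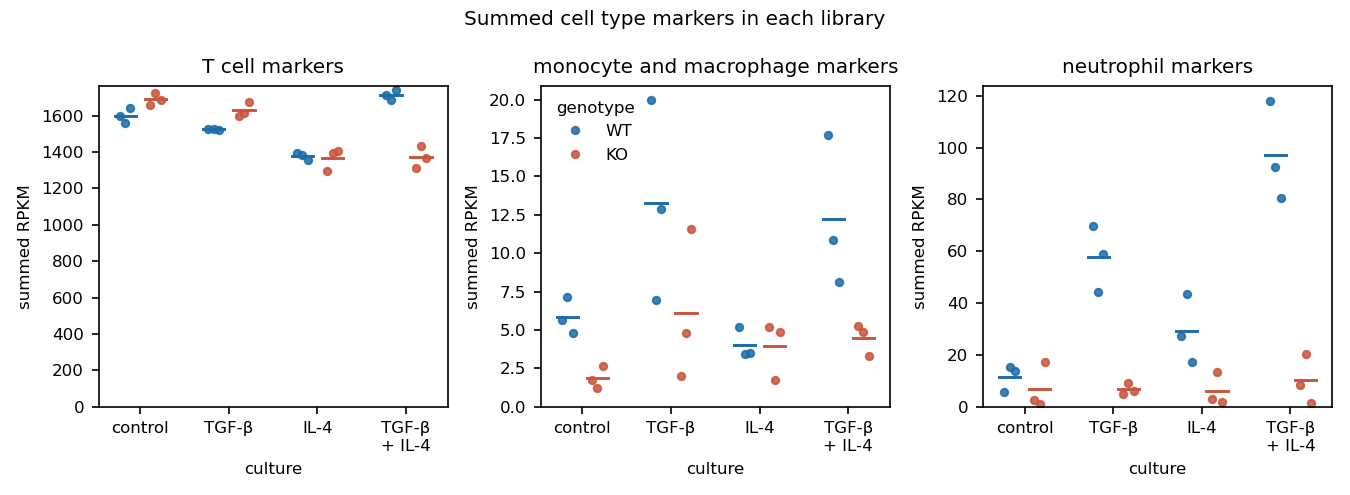
Summed RPKM (y axis) of T cell, monocyte and macrophage, and neutrophil markers in each library by culture (x axis), with WT in blue and KO in orange; each point is 1 library and each bar the mean of 3. The T cell sum stays between 1297 and 1741 in all libraries, while the neutrophil sum is highest in the WT libraries with both cytokines, at 80.7 to 118.

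Most of the 31 genes were well expressed and varied little. Of the 29 that were tested, 25 differed by less than 2-fold between their highest and lowest library of all 24, and 15 by less than 1.5-fold. The other 4, *Tm7sf2*, *Abcg1*, *Scd1* and *Scd2*, differed by more than 3-fold. The same counts were not made over all tested genes, so they do not set the members apart from other genes. Of the 2 genes that were not tested, *Hmgcs1*, which encodes the enzyme that condenses acetoacetyl-CoA and acetyl-CoA before mevalonate, was listed at 0 in all 24 libraries, and whether this reflects the gene annotation behind the table was not tested. *Abca1*, a cholesterol exporter, had a mean of 0.17 RPKM and a highest value of 0.515.

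In WT cells, the members that passed the test with cytokines were few and all higher than in control. With TGF-β, 3 of 29 members rose (*Scd2*, *Scd1* and *Abcg1*) and 0 fell, where 3.09% of all 9726 tested genes rose and 2.3% fell. With TGF-β + IL-4, 4 members rose (the same 3 genes and *Tm7sf2*) and 0 fell, against 5.93% and 2.53% of all genes. With IL-4 alone 1 member rose, *Scd2*, against 0.915% of all genes, and 0 fell, against 0.391%. The counts of members at an unadjusted p under 0.05 in limma were 12, 16 and 7 for TGF-β, both cytokines and IL-4 (41.4%, 55.2% and 24.1%), beside 30.4%, 49.1% and 16.0% of all genes. Members went both ways, from −0.44 to 0.85 with TGF-β, −0.43 to 1.21 with both and −0.35 to 0.68 with IL-4. A signed median over them gives no typical size of change. The members' median log2 fold change was 0.05 with TGF-β, 0.08 with both and −0.06 with IL-4, beside 0.01, 0.02 and 0.01 over all tested genes. The 3 cytokine cultures of a genotype were compared with the same 3 control libraries, and the comparisons of genotypes use these libraries again.

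The interaction of the cytokines asks whether the effect of both differs from the sum of each alone. In WT, 0 members were called for it by limma in either direction, where 0.956% of all genes were called positive and 0.298% negative. At an unadjusted p under 0.05 there were 8 of 29 members and 2094 of 9726 genes. The members' median was 0.13, beside −0.00 over all genes, and 23 of 29 members and 4819 of 9726 genes were above 0.

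**Figure D2:**
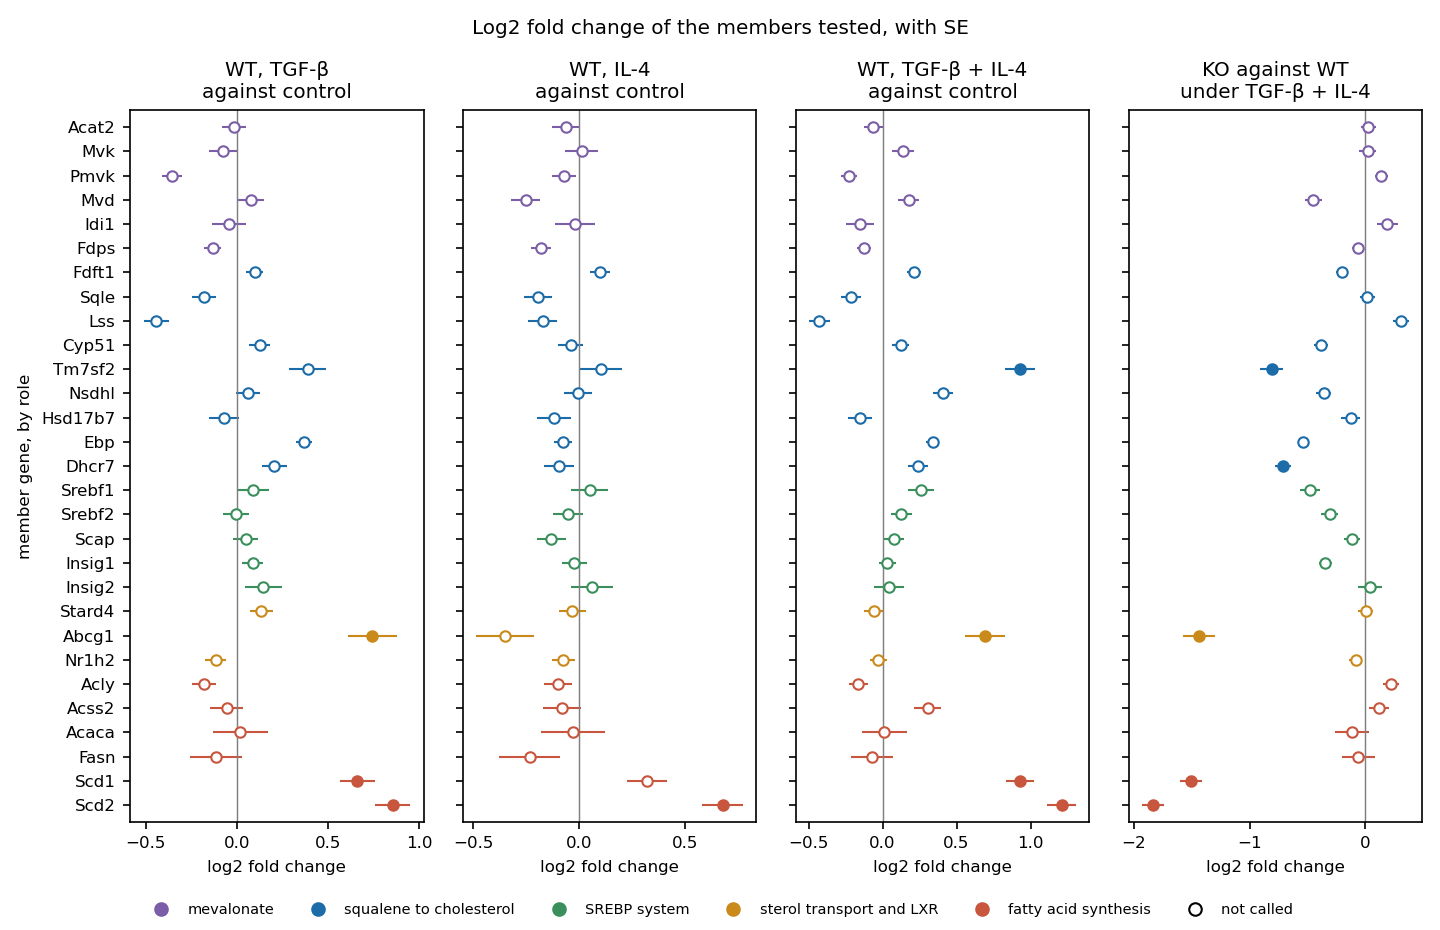
Log2 fold change (x axis, with SE as bars) of the 29 tested members, in order of role (y axis), for the 3 cytokine cultures against control in WT and for KO against WT under TGF-β + IL-4; filled points were called. The called points are *Scd2*, *Scd1*, *Abcg1* and *Tm7sf2*, with *Dhcr7* in the comparison of genotypes, and the points that were not called lie between −0.54 and 0.41.

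By the ratio of highest to lowest library, the 6 tested mevalonate enzymes spanned the narrowest range of the 5 roles. *Acat2*, *Mvk*, *Pmvk*, *Mvd*, *Idi1* and *Fdps* carry acetyl units to farnesyl pyrophosphate, and their mean levels ran from 17.1 RPKM for *Mvk* to 183 for *Fdps*. Between highest and lowest library they differed by 1.24-fold to 1.55-fold. In the WT comparisons with control, 0 of 6 were called by limma, with 2, 2 and 3 at an unadjusted p under 0.05 for TGF-β, IL-4 and both, where 5.40%, 1.31% and 8.46% of all genes were called and 30.4%, 16.0% and 49.1% had such a p. Their log2 fold changes ran from −0.36 to 0.08 with TGF-β, from −0.25 to 0.01 with IL-4 and from −0.23 to 0.18 with both. KO and WT differed by −0.22 to 0.16 in control and by −0.45 to 0.19 with both cytokines, again with 0 of 6 called by limma (3 and 2 at an unadjusted p under 0.05), where 2.64% and 9.16% of all genes were called and 32.5% and 51.6% had such a p.

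The 9 genes from squalene to cholesterol (*Fdft1*, *Sqle*, *Lss*, *Cyp51*, *Tm7sf2*, *Nsdhl*, *Hsd17b7*, *Ebp* and *Dhcr7*) had mean levels between 4.62 and 55.9 RPKM. *Tm7sf2* had the lowest mean and *Fdft1*, the squalene synthase, the highest. In the 3 WT comparisons with control, *Tm7sf2* under TGF-β + IL-4 was the only one of the 9 that was called. The 9 genes had log2 fold changes from −0.44 to 0.39 with TGF-β, from −0.19 to 0.10 with IL-4 and from −0.43 to 0.93 with both, and *Tm7sf2* was the highest in each. At an unadjusted p under 0.05 there were 5, 2 and 7 of them for TGF-β, IL-4 and both, beside 30.4%, 16.0% and 49.1% of all genes. In the same comparisons 5.40%, 1.31% and 8.46% of all genes were called. With both cytokines and no fold minimum, 5 were higher and 1 lower at an adjusted p under 0.01, where 16.0% and 12.4% of all genes were.

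*Tm7sf2* encodes a sterol reductase of the endoplasmic reticulum that acts after *Cyp51*. Its WT control libraries held 4.56, 3.13 and 3.99 RPKM, TGF-β libraries 5.77, 5.39 and 4.93, IL-4 libraries 5.02, 3.96 and 3.73, and libraries with both 8.37, 8.33 and 8.03. The 3 WT libraries with both cytokines lay above all other libraries, and those with IL-4 overlapped control. The KO libraries held 3.57, 3.34 and 4.06 in control, 3.21, 2.92 and 2.73 with TGF-β, 4.17, 4.25 and 4.43 with IL-4 and 3.97, 4.74 and 4.16 with both. No KO culture reached the level of WT cells with both cytokines, KO control overlapped WT control, and the KO libraries with TGF-β lay below KO control.

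With both cytokines *Tm7sf2* rose in WT by a log2 fold change of 0.93 (SE 0.10, adjusted p 3.30e-07), higher in 3 of 3 libraries than in any control. With TGF-β alone the fold change was 0.39 (adjusted p 0.00803), under the fold of 1.5. In the 8 identified WT libraries the change with both cytokines was 0.80 (adjusted p 8.51e-04). The KO response to both was 0.18 and did not pass the test (adjusted p 0.302). The difference between the genotypes in that response was −0.75 (SE 0.14, adjusted p 7.93e-04), which missed the threshold without the second WT replicate (adjusted p 0.0108) or the third KO replicate (0.0138). With TGF-β alone the difference was −0.63 (adjusted p 0.00487), and that call was lost on leaving out any of 5 replicates, each with its libraries from all cultures of the genotype, with adjusted p 0.0547 and 0.0127 without the second and the third WT replicate and 0.0157, 0.0130 and 0.0674 without the first, the second and the third KO replicate. It was also lost with no filter on low values, with only the compared groups in the fit and, by its fold (−0.56), with quantile normalization.

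Of the 4 members that were called in WT, *Tm7sf2* has an entry in the RefSeq promoter table, and *Scd1*, *Scd2* and *Abcg1* have none. Its promoter is shown because the gene responded to both cytokines together, and because 2 of the 4 motifs searched occur in it. The window runs from 250 bases before to 50 after the start, on the minus strand at chr19:6067801-6068100 of GRCm38.p6, and capitals mark the motifs.
Tm7sf2: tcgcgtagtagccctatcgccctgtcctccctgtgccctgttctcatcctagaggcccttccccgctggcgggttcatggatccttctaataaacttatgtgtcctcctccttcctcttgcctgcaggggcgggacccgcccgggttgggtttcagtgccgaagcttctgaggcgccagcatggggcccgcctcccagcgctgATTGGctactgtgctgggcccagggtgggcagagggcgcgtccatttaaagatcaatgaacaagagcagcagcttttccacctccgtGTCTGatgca
The NF-Y letters CCAAT occur on the opposite strand, as ATTGG, at −47 to −43 from the start, and the Smad letters CAGAC on the opposite strand, as GTCTG, at 40 to 44. Both strands were searched, and the 2 matches do not overlap. CCAAT is found in 37.4% of the 32851 windows of this length in the table and CAGAC in 49.6%. The windows of the members held CCAAT in 20 of 32 (62.5%) and CAGAC in 19 of 32 (59.4%), for the 24 members with an entry. The SREBP letters TCACNCCAC occur in 1.24% of all windows and in 1 member window, that of *Hmgcs1*, and the LXR motif in 0.0152% and in 0 member windows. A match is a description of letters and not a binding site.

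*Dhcr7*, the last enzyme of one branch of cholesterol synthesis, is named here although it was chosen after its values were seen. It was called in KO against WT under TGF-β + IL-4, at a log2 fold change of −0.71 (SE 0.07, adjusted p 5.09e-08). In the 12 KO libraries it ran from 9.40 to 12.3 RPKM with a median of 10.4, and in the 12 WT libraries from 13.6 to 18.4 with a median of 16.0. The 2 genotypes did not overlap in any culture. In control the difference was −0.51 (adjusted p 2.23e-05), under the fold of 1.5.

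In the SREBP system, 0 of 5 members were called by limma in any of the 11 comparisons, and 7 of these 55 tests (12.7%) had an unadjusted p under 0.05. Over all genes, 3.93% of the tests in these comparisons were called and 27.6% had such a p. The small p-values lay mostly in KO against WT, for 3 of 5 members in control and 3 with both cytokines. Of all genes, 32.5% and 51.6% had such a p there. With no fold minimum, 2 and 3 members were lower at an adjusted p under 0.01, as were 487 and 1429 of 9726 genes. *Srebf1* encodes the factor that acts mainly on fatty acid genes and *Srebf2* the one that acts mainly on cholesterol genes, while *Scap*, *Insig1* and *Insig2* control their release. Mean levels ran from 4.43 RPKM for *Insig2* to 61.9 for *Srebf2*. Between highest and lowest library the 5 genes differed by 1.28-fold to 1.87-fold.

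*Srebf1* held 31, 34.9 and 27.7 RPKM in WT control, 34.3, 36.6 and 28.9 with TGF-β, 32.2, 31.7 and 32.6 with IL-4 and 36.7, 39.9 and 35.7 with both. In KO it held 24, 21.3 and 25.2 in control, 24.8, 23.5 and 23.5 with TGF-β, 27.8, 24.4 and 26.8 with IL-4 and 24.3, 28.5 and 26.8 with both. The WT cultures with a single cytokine overlapped control, those with both lay above it, and in control the KO libraries lay below the WT libraries. The change with both cytokines in WT was 0.26 (SE 0.09, adjusted p 0.0214) and did not pass the test. KO cells differed from WT by −0.39 in control (adjusted p 0.00328) and by −0.48 with both cytokines (adjusted p 1.23e-04), each under the fold of 1.5.

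*Srebf2* was steadier. Its WT libraries held 65.4, 70.4 and 60.7 RPKM in control, 69.4, 68.8 and 58.0 with TGF-β, 61.9, 64.5 and 62.3 with IL-4 and 68.9, 73.5 and 72.0 with both. The KO libraries held 59.3, 55.3 and 57.5 in control, 59.9, 56.8 and 60.7 with TGF-β, 55.7, 53.7 and 56.6 with IL-4 and 50.8, 63.1 and 59.5 with both. The WT cultures overlapped each other, apart from those with IL-4 and with both, and KO control lay just below WT control. In WT the change with both cytokines was 0.13 (SE 0.07, adjusted p 0.167), and KO differed from WT in that culture by −0.31 (adjusted p 0.00151), a fold under 1.5. *Insig1*, an SREBP target that retains the SREBP complex, was lower in every KO library (26.7 to 29.6) than in any WT library (31.9 to 40.3), and was chosen after its values were seen.

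Of the 3 tested genes of sterol transport and LXR, *Stard4*, *Abcg1* and *Nr1h2*, only *Abcg1* was called in any comparison. Over all genes, 3.93% of the single tests in the 11 comparisons were called, and the share of genes called in any of them was not counted. *Stard4*, which carries cholesterol between membranes, and *Nr1h2*, which encodes LXRβ, had means of 15.3 and 59.4 RPKM and differed between libraries by 1.31-fold and 1.27-fold. *Abcg1* encodes a transporter that moves cholesterol out of the cell and is a textbook LXR target. Its WT control libraries held 6.13, 5.67 and 6.61 RPKM, TGF-β libraries 11.0, 11.2 and 10.6, IL-4 libraries 4.36, 4.84 and 4.57, and libraries with both 10.4, 9.53 and 11.6. All 6 WT libraries that received TGF-β, alone or with IL-4, lay above all other libraries of either genotype, and those with IL-4 alone lay below WT control. The KO libraries held 3.26, 4.02 and 3.57 in control, 3.74, 3.38 and 3.86 with TGF-β, 2.31, 3.24 and 2.94 with IL-4 and 2.34, 4.83 and 2.95 with both. The KO libraries with TGF-β overlapped KO control, and every KO control library was below every WT control library.

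*Abcg1* rose in WT with TGF-β by a log2 fold change of 0.74 (SE 0.14, adjusted p 3.53e-04) and with both cytokines by 0.69 (SE 0.14, adjusted p 4.27e-04), in 3 of 3 libraries each. The first call was lost without the first or second WT replicate (adjusted p 0.0143 and 0.0183) and the second without the first or the third (0.0117 and 0.0120), while the fold stayed over 1.5 in each case. In the 8 identified WT libraries, fitted without KO, both passed, at 0.68 and 0.71. These are the WT libraries that remain without the second WT replicate, where the first call was lost with KO in the fit. The value with IL-4 alone was −0.35 (adjusted p 0.176).

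In KO cells *Abcg1* did not respond past the threshold to TGF-β (0.02) or to both cytokines (−0.11, adjusted p 0.680). Against WT it was lower in KO by −0.63 in control (SE 0.14, adjusted p 0.00280) and by −1.43 with both (SE 0.14, adjusted p 3.60e-08). The genotypes' responses to both cytokines differed by −0.81 (SE 0.19, adjusted p 0.00528), and their responses to TGF-β by −0.73, which did not pass the test (adjusted p 0.0163) but did with only the compared groups in the fit (6.27e-04), without the first or the second KO replicate (0.00659 and 0.00540) and at a threshold of 0.05. The control difference and the difference in response to both were each lost on leaving out any of 5 replicates, all but the second KO replicate. The adjusted p of the control difference was then 0.0277, 0.0133 and 0.0279 without the first, the second and the third WT replicate and 0.0218 without the third KO replicate. Without the first KO replicate it was 0.00510, with a fold under 1.5 (−0.57). For the difference in response the adjusted p was 0.0377, 0.0255 and 0.0377 without each WT replicate, 0.0133 without the first KO replicate and 0.0448 without the third. It was 0.0125 with no filter on low values and 0.0361 with only the compared groups in the fit.

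Among the 6 fatty acid genes, the desaturases varied most and the enzymes before them little. *Acly*, *Acss2*, *Acaca* and *Fasn* make acetyl-CoA, malonyl-CoA and palmitate, and 0 of these 4 were called by limma in any of the 11 comparisons, with 6 of 44 tests (13.6%) at an unadjusted p under 0.05, beside 3.93% of the tests of all genes called and 27.6% at such a p. Their mean levels ran from 5.39 RPKM for *Acss2* to 126 for *Acly*, and they differed between libraries by 1.37-fold to 1.96-fold. *Scd1* and *Scd2* encode stearoyl-CoA desaturases, which place a double bond in the finished chain, and differed by 11.0-fold and 10.1-fold. *Scd1* and *Scd2* are paralogs of similar sequence, and whether reads are shared between them was not tested.

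*Scd2* was the more abundant of these paralogs. Its WT control libraries held 21.9, 24.1 and 19.9 RPKM, TGF-β libraries 43.9, 43.5 and 34.6, IL-4 libraries 34.5, 36.7 and 35.7, and libraries with both 49.7, 54.7 and 51.8. Every cytokine culture lay above control without overlap, and the libraries with both lay above all others. The KO libraries held 6.51, 5.41 and 6.50 in control, 8.85, 7.05 and 7.10 with TGF-β, 13.8, 14.7 and 12.1 with IL-4 and 13.9, 13.7 and 14 with both. All 12 KO libraries were below the lowest WT library, and within KO the cultures with IL-4 were higher than those without it.

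In WT, *Scd2* rose with TGF-β by a log2 fold change of 0.85 (SE 0.10, adjusted p 6.84e-07), with IL-4 by 0.68 (SE 0.10, adjusted p 6.06e-05) and with both by 1.21 (SE 0.10, adjusted p 3.56e-09), each in 3 of 3 libraries. In the 8 identified WT libraries these were 0.87, 0.72 and 1.24, and all 3 were called. In KO, *Scd2* rose with IL-4 by 1.03 (adjusted p 9.95e-08) and with both by 1.06 (adjusted p 5.90e-08), while TGF-β alone gave 0.28 (unadjusted p 0.00902) and was not called. It was lower in KO than in WT by −1.69 in control (SE 0.10, adjusted p 1.40e-10) and by −1.83 with both cytokines (SE 0.10, adjusted p 3.00e-12). The genotypes' responses to TGF-β differed by −0.58 (SE 0.14, adjusted p 0.00643), under the fold of 1.5 but over it without the third WT replicate (−0.62, adjusted p 0.00801), and those to both by −0.15 (adjusted p 0.484). So the difference in level between the genotypes was present with and without the cytokines.

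**Figure D3:**
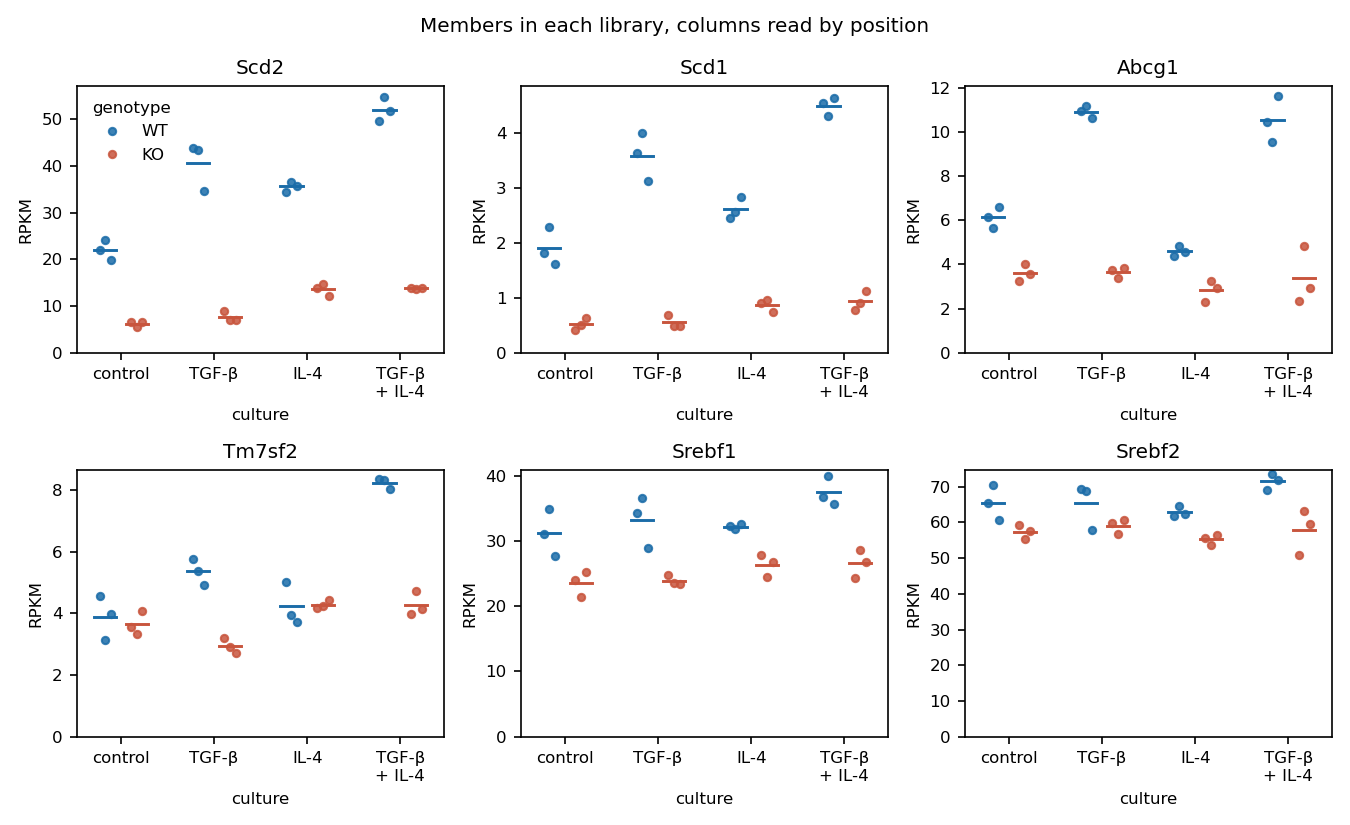
RPKM (y axis) of *Scd2*, *Scd1*, *Abcg1*, *Tm7sf2*, *Srebf1* and *Srebf2* in each library by culture (x axis), with WT in blue and KO in orange; each point is 1 library and each bar the mean of 3. WT libraries with both cytokines hold 49.7 to 54.7 RPKM of *Scd2* against 19.9 to 24.1 in control, while *Srebf2* stays between 50.8 and 73.5 in all 24 libraries.

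*Scd1* was expressed at a low level, with a mean of 1.93 RPKM. It met the filter of 1 RPKM only through WT, with culture means of 1.90 to 4.49, against 0.520 to 0.939 in KO. Its comparisons of KO with WT therefore concern a gene that only the higher group brought into the test. Its WT control libraries held 1.82, 2.29 and 1.60 RPKM, TGF-β libraries 3.62, 3.99 and 3.12, IL-4 libraries 2.45, 2.55 and 2.83, and libraries with both 4.53, 4.31 and 4.64. All 3 cytokine cultures were above control without overlap. The KO libraries held 0.420, 0.505 and 0.636 in control, 0.676, 0.493 and 0.489 with TGF-β, 0.896, 0.957 and 0.742 with IL-4 and 0.784, 0.903 and 1.13 with both. Each KO library was below each WT library, and KO cultures with TGF-β overlapped KO control.

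*Scd1* rose in WT with TGF-β by 0.66 (SE 0.09, adjusted p 1.82e-05) and with both cytokines by 0.93 (SE 0.09, adjusted p 1.47e-07), in 3 of 3 libraries each, and IL-4 gave 0.32 (adjusted p 0.0516). These changes were 0.69, 1.04 and 0.43 in the 8 identified WT libraries. KO was lower than WT by −0.93 in control (SE 0.09, adjusted p 5.13e-07) and by −1.51 with both cytokines (SE 0.09, adjusted p 5.28e-11). At such low levels the addition of 1 RPKM before the logarithm makes these fold changes smaller than the ratios of the values. The response to TGF-β differed between the genotypes by −0.63 (SE 0.13, adjusted p 0.00272). That call was lost without the first WT replicate (adjusted p 0.0381) and without the second or the third KO replicate (0.0202 and 0.0225), and with a pseudocount of 0.1 (0.0256) or only the compared groups in the fit (0.0136). In KO, *Scd1* changed by 0.35 with both cytokines (adjusted p 0.0178), which was called with a pseudocount of 0.1 (0.74, adjusted p 0.00337). The genotypes' responses to both differed by −0.58 (adjusted p 0.00410), under the fold of 1.5. The fold was over 1.5 without the second WT replicate (−0.69, adjusted p 0.00320) and with quantile normalization (−0.59, adjusted p 0.00541), while a pseudocount of 0.1 gave −0.47 with an adjusted p of 0.169.

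In KO cells, few members passed the test. With TGF-β, 0 of 29 members were called in KO by limma, where 0.0617% of all genes rose and 0% fell, and 2 members and 281 genes had an unadjusted p under 0.05. With IL-4 the member that rose was *Scd2*, against 1.63% of all genes, and 0 members fell, against 1.02%. With both cytokines *Scd2* again was the member that rose, against 1.94% of all genes, and 0 fell, against 0.915%. The members' medians were 0.01, −0.03 and −0.00 for TGF-β, IL-4 and both, beside −0.00, 0.01 and 0.01 over all genes. At an unadjusted p under 0.05 there were 4 members with IL-4 and 4 with both (13.8% each), beside 23.8% and 22.8% of all genes.

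Between the genotypes, all called members were lower in KO. In control these were 3 of 29 (*Scd2*, *Scd1* and *Abcg1*), where 2.07% of all genes were lower, and 0 members were higher, where 0.576% of genes were. With both cytokines 5 of 29 were lower (the same 3 genes, *Tm7sf2* and *Dhcr7*), against 6.06% of all genes, and 0 were higher, against 3.11%. *Scd1*, called in each culture, met the filter on low values only through its WT libraries. The members' median was −0.09 in control and −0.11 with both cytokines, beside 0.02 and 0.01 over all genes. At an unadjusted p under 0.05 there were 15 members in control and 16 with both (51.7% and 55.2%), beside 32.5% and 51.6% of all genes.

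Over all libraries, 4 of 29 members (*Scd1*, *Scd2*, *Dhcr7* and *Insig1*) were lower in each of the 12 KO libraries than in any of the 12 WT libraries, against 1.61% of all tested genes. In the opposite direction there were 0 members, against 2.05% of genes. This count, picked with the values in view, is the same under both readings of the columns. It holds *Scd1*, which met the filter on low values only through WT. The response to TGF-β differed between genotypes for 2 members, *Tm7sf2* (−0.24 in KO, 0.39 in WT) and *Scd1* (0.03 and 0.66), against 2.53% of all genes with a negative difference, and for 0 members with a positive one, against 1.7% of genes. The response to both cytokines differed for 2 members, *Tm7sf2* (0.18 in KO, 0.93 in WT) and *Abcg1* (−0.11 and 0.69), against 3.46% of genes, and for 0 in the positive direction, against 1.71%. The medians of these differences were −0.05 and −0.02, beside −0.01 and 0.00 over all genes, and 7 and 10 members (24.1% and 34.5%) had an unadjusted p under 0.05, beside 20.8% and 32.0% of all genes.

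With the columns as headed, the calls within each genotype disappeared for members and for all other genes alike. In that reading limma called 0 of 9726 genes in every comparison of cultures within WT or within KO and in every interaction, while KO against WT gave 39 genes in control and 59 with both cytokines. Of the members, 0 were called in control and 2 with both cytokines. *Scd2* then changed by 0.21 with TGF-β, 0.09 with IL-4 and 0.30 with both in WT, while KO differed from WT by −1.69 in control (adjusted p 0.0284) and by −1.81 with both (adjusted p 0.0181). The WT results above thus depend on the reading by position, which the read counts match in 8 of 8 libraries, and the size of the genotype difference of *Scd2* does not.

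**Figure D4:**
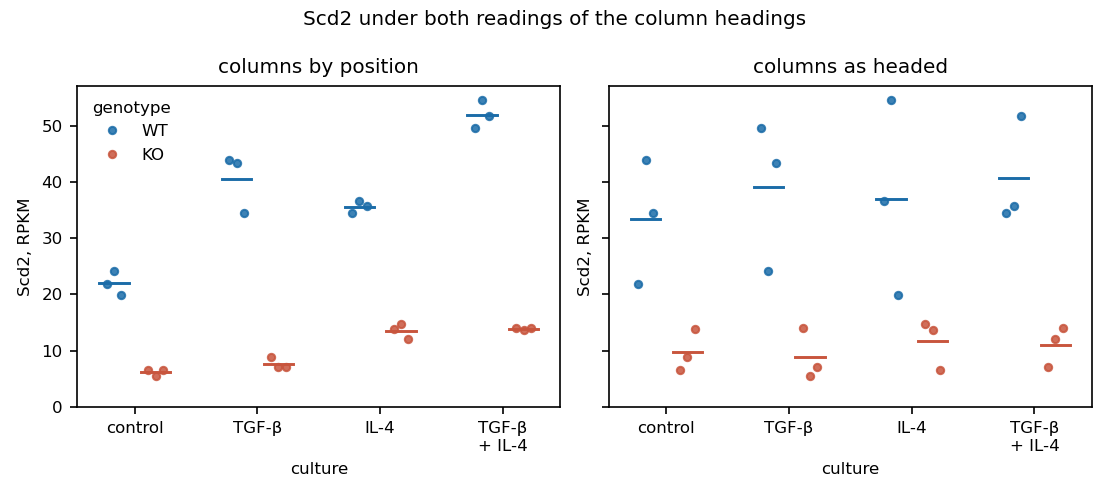
RPKM of *Scd2* (y axis) in each library by culture (x axis), with the columns read by position on the left and as headed on the right, WT in blue and KO in orange; each point is 1 library and each bar the mean of 3. By position the WT control libraries lie at 19.9 to 24.1 and those with both cytokines at 49.7 to 54.7, while as headed the libraries of every WT culture overlap, and in both readings all KO libraries are below all WT libraries.

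Other genes of the same pathways were examined as a list of 39, of which 35 were tested. The list holds further genes of sterol synthesis and uptake, SREBP processing and control, fatty acid synthesis and elongation, and fatty acid oxidation. In WT, 0 of 35 were called higher by limma and 1 lower with TGF-β (9 at an unadjusted p under 0.05), where 3.09% and 2.3% of all genes were. With IL-4 0 were called by limma (6 at an unadjusted p under 0.05), where 0.915% and 0.391% of all genes were. With both cytokines 3 rose and 0 fell (20 at an unadjusted p under 0.05), against 5.93% and 2.53%. The list genes at an unadjusted p under 0.05 made up 25.7%, 17.1% and 57.1% of the list in these comparisons, beside 30.4%, 16.0% and 49.1% of all genes. In KO, 0 were called by limma with TGF-β, where 0.0617% of all genes were. With IL-4 and with both, *Acadm* alone was called (0.65 and 0.67), where 2.65% and 2.86% of all genes were. For TGF-β, IL-4 and both, 2, 9 and 7 list genes (5.71%, 25.7% and 20.0%) had an unadjusted p under 0.05, beside 2.89%, 23.8% and 22.8%. *Acadm* was chosen after its values were seen. In WT it held 27.4, 25.4 and 30.4 RPKM in control and 39.0, 41.8 and 38.1 with IL-4, and was not called. The median log2 fold change of the list was 0.01 with TGF-β, −0.01 with IL-4 and 0.08 with both in WT.

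*Cpt1a*, which lets fatty acids enter mitochondria, held 2.05, 2 and 1.80 RPKM in WT control and 3.74, 4.14 and 4.35 with both cytokines, a rise of 0.78 (SE 0.11, adjusted p 8.36e-06). The groups did not overlap. *Npc1*, a lysosomal cholesterol exporter, held 2.47, 2.40 and 2.27 in WT control and 4.41, 3.78 and 5.24 with both, a rise of 0.69 (SE 0.12, adjusted p 8.45e-05). The rise of *Npc1* was under the fold of 1.5 without the third WT replicate (0.57) and with quantile normalization (0.56). It was lower in KO than in WT with both cytokines by −0.68 (adjusted p 6.64e-05), and without the third WT or the third KO replicate that difference was under the fold of 1.5 (−0.58 each), as it was with quantile normalization (−0.58), and with only the compared groups in the fit its adjusted p was 0.0143.

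*Npc2*, the soluble partner of *Npc1*, was the 1 gene of these 35 that fell in WT with TGF-β. It held 109, 107 and 118 RPKM in WT control and 69.5, 71.6 and 72.0 with TGF-β, with no overlap, and a log2 fold change of −0.64 (SE 0.09, adjusted p 8.89e-06). With both cytokines the WT libraries held 117, 109 and 118, which overlap control (0.05, adjusted p 0.693). The interaction of the cytokines in WT was 0.57 (adjusted p 0.00672), under the fold of 1.5, and was called with no fold minimum, with quantile normalization (0.61) and in the 8 identified WT libraries (0.66). The KO libraries held 79.2, 82.3 and 85.0 in control and 77.7, 82.8 and 80.6 with TGF-β, which overlap. The genotypes' responses differed by 0.61 (SE 0.12, adjusted p 0.00161). Without the first, the second or the third WT replicate the adjusted p was 0.0205, 0.0109 and 0.0211, and without the second KO replicate the fold was under 1.5 (0.58), as with quantile normalization (0.58).

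*Apoe*, which carries cholesterol between cells and is an LXR target, rose in WT with both cytokines by 0.84 (SE 0.24, adjusted p 0.00836). Its values were 1.79, 1.42 and 1.29 RPKM in WT control and 4.88, 1.68 and 4.59 with both, and the second of the latter lies within the control range. That call was lost without the first or the third WT replicate (adjusted p 0.0740 and 0.0986) and without any 1 of the KO replicates (0.0142, 0.0152 and 0.0131). It was also lost with the replicate block (0.0120) and with each of 5 other settings, at adjusted p 0.0105 to 0.0283. KO was lower than WT with both cytokines by −1.41 (adjusted p 6.60e-05). *Apoe* met the filter of 1 RPKM only through WT, with culture means of 1.20 to 3.72, against 0.608 to 0.885 in KO. This difference therefore concerns a gene that only the higher group brought into the test. Between genotypes, *Fads2*, a fatty acid desaturase chosen after its values were seen, was lower in KO in control (−0.61, adjusted p 5.99e-04). In all, 1 of 35 list genes was lower and 0 higher in KO in control, where 2.07% and 0.576% of all genes were, and 2 were lower and 0 higher with both cytokines, where 6.06% and 3.11% were, with 10 and 14 list genes (28.6% and 40.0%) at an unadjusted p under 0.05 in limma, beside 32.5% and 51.6% of all genes.

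DNase-seq gave a readout apart from the RNA. DNase I hypersensitive sites (DHSs) mark open chromatin, and 1 list of DHSs exists for WT and KO cells in control and with both cytokines, so differences between lists have no replicate check. The lists hold 44298 (WT control), 33880 (WT with both), 33665 (KO control) and 27145 (KO with both) DHSs in mm9, and the depth of the libraries is unknown. Of the 30 members with a start in the GENCODE annotation, 28, 28, 29 and 28 had a DHS within 1000 bp of it, or 93.3%, 93.3%, 96.7% and 93.3%. Over all 20582 genes with a start the shares were 49.3%, 47.6%, 47.6% and 45.4%. Expressed genes carry such sites more often than silent ones. Among the 8982 genes with a mean of at least 1 RPKM the shares were 88.9%, 87.5%, 87.2% and 85.0%, against 93.1%, 93.1%, 96.6% and 93.1% of the 29 members in that class, a comparison chosen after seeing the data. The members are thus near the level of other expressed genes.

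Of the 30 members, 28 had a DHS in all 4 lists. *Insig2* had none in any list, and *Scd1* had one in the KO control list and in no other, at chr19:44482749-44482948 of mm9, 550 bp from the start, with an enrichment of 3.51-fold over the local background and a −log10 q of 4.35. The DHS at the start of *Scd2* had an enrichment of 4.13-fold in WT control, 3.56-fold in WT with both cytokines, 3.11-fold in KO control and 4.23-fold in KO with both. At *Tm7sf2* the enrichment was 10.5-fold, 10.2-fold, 6.24-fold and 4.95-fold in the same order, and at *Abcg1* 5.65-fold, 4.66-fold, 3.99-fold and 3.55-fold. Such a difference is common in these lists. Of the 28 members with a DHS in all 4, 23 (82.1%) had a higher enrichment in both WT lists than in both KO lists, as had 76.4% of the 9048 genes with a DHS in all 4, a count made after seeing the data. With 1 library each, no test was made.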

How the data were processed

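With Bowtie2 and mm9, the authors mapped all reads, dropped those with a mapping quality of 10 or less and duplicates, and deposited RPKM for 24 RNA-seq libraries. For DNase-seq, the deposited lists give each narrow peak of MACS with its fold enrichment, a ratio to the local background, and its −log10 q value. Columns were read by position. limma 3.58.1 in R 4.3.3 was fitted with a trend to log2(RPKM + 1) of the 9726 genes with a mean of at least 1, with 8 culture means and Benjamini-Hochberg adjustment over all of them. The script was tested on simulated data. Gene starts came from GENCODE vM1 (mm9), motifs were searched with Python 3.11.15 and pandas 2.3.3, and figures were drawn with matplotlib 3.10.9. The members and gene lists were chosen with earlier results of these data known. Members called in a WT comparison with control or in the interaction of genotype with both cytokines were named, with *Srebf1*, *Srebf2* and *Tgfbr1* in any case, and pathway genes by the same rule; 1 gene of the pathway list is not reported here. Alternatives were the headings, the 8 identified WT libraries, the pseudocount, filter, scaling, trend, thresholds, groups in the fit, the replicate block, and each replicate left out in turn.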

Additional observations from a re-analysis of the deposited data

Results flagged for a closer look

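Genes are given here whose response to cytokines differed between WT and KO by limma's interaction test. For TGF-β the difference of the log2 fold changes, KO minus WT, was −0.63 for *Tm7sf2*, −0.63 for *Scd1* and 0.61 for *Npc2*. For TGF-β + IL-4 it was −0.75 for *Tm7sf2* and −0.81 for *Abcg1*. *Scd1* met the filter of 1 RPKM only through WT. None of these calls held on leaving out every replicate in turn. With TGF-β the call was lost in 5 cases for *Tm7sf2*, 3 for *Scd1* and 4 for *Npc2*. With both cytokines it was lost in 2 cases for *Tm7sf2* and 5 for *Abcg1*. The targeted gene *Tgfbr1* gave −1.84 with TGF-β and −1.83 with both. Each culture had 3 libraries. How far single libraries stood apart is given above as a distance, without a significance test. The library that lay furthest, the second KO library with both cytokines, was left out in an alternative.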

How the results depend on the processing

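Counts of called members within 1.5 times the reported ones were the rule, and the exceptions follow, in each of which the cause was not tested unless fewer genes or libraries entered the fit. With the columns as headed, the counts were 0 for TGF-β, IL-4 and both cytokines against control in WT, 0 for IL-4 and both in KO, 0 for KO against WT in control, 2 in that comparison with both cytokines (5 by position), and 0 for each genotype interaction. With no fold minimum the counts were 7 (TGF-β) and 11 (both) in WT, 2 (IL-4) and 2 (both) in KO, 7 and 15 for KO against WT in control and with both, and 6 (with TGF-β) and 5 (with both) for the genotype interactions, which were each 2 as reported. With a pseudocount of 0.1 the count was 2 for both cytokines in KO and 1 for the interaction with TGF-β. With a mean of at least 5 RPKM, which left out *Scd1*, *Tm7sf2*, *Insig2* and *Hsd17b7*, it was 2 for both cytokines in WT, 3 for KO against WT with both, and 0 and 1 for the interactions. Without a filter on low values both interactions gave 1, as they did with only the compared groups in the fit, and quantile normalization gave 1 for the interaction with TGF-β. Leaving out each replicate gave 0 to 2 members for the interaction with TGF-β and 0 to 2 for that with both cytokines. Whether libraries of the same number share a mouse is not stated. Their deviations from the culture means, read by position, had correlations between −0.30 and 0.55, and 18 of 24 libraries correlated best with their own number. With that number as a replicate block 3, 1 and 4 members were called for TGF-β, IL-4 and both in WT and 3 and 2 for the interactions; *Abcg1* passed in the interaction with TGF-β (adjusted p 0.00674), the *Apoe* call was lost (0.0120), and no other call of a named gene changed with the block, which was not fitted to KO against WT within a culture. Without the second KO library with both cytokines, an alternative chosen after seeing the data, 3 members were called in the interaction with TGF-β. Of 2207 results for 12 genes under alternatives other than the headings, 2122 kept their side of the threshold, 53 lost a call, 32 gained one and 0 reversed. The shares of members with a DHS moved by at most 1 gene. Read numbers are unknown, so no counting error can be given for low values such as those of *Scd1*, and the KO cultures rest on the order of the columns.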
